A study of Mus musculus with 8 samples.

Results

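Small heat shock proteins are chaperones that hold unfolding proteins in a soluble state without using ATP, and skeletal muscle carries an unusually full set of them. Here the set was 7 genes, Cryab, Hspb1, Hspb2, Hspb3, Hspb6, Hspb7 and Hspb8, taken by symbol from the 24848 genes of each library. The family was singled out because Cryab had been seen lower with praliciguat, so every difference between the diets below is a description of these libraries and carries no test of its own. All 7 genes had enough reads to be among the 13569 genes tested.

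The libraries came from ischemic tibialis anterior, a leg muscle made mostly of fast fibres, of male Leprdb/db mice. In this strain the leptin receptor is defective, which makes the animals obese and diabetic. There were 4 libraries from mice fed chow with 75 ppm praliciguat, a stimulator of the nitric oxide receptor soluble guanylate cyclase, and 4 from mice fed a control diet without the drug, called placebo in the labels. The drug diet aimed at the plasma peak that 10 mg/kg/day by mouth would give. Both groups had hind limb ischemia surgery, the diets ran for 31 days from day -3, and muscle was taken on day 28. There was no uninjured muscle and no mouse with a working leptin receptor among the libraries, and the labels do not give the animals' age or say outright that each library is 1 mouse. P-values therefore measure the spread between these libraries.

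In muscle, alpha-B crystallin (the product of Cryab) and its relatives sit on desmin filaments and at the Z-disc, where they keep the contractile apparatus from aggregating under mechanical, heat or oxidative stress. Hspb8 acts with the co-chaperone Bag3 to send damaged Z-disc proteins to autophagy. Hspb6 is a known target of the cyclic nucleotide-dependent kinases, which put a phosphate on its N-terminal part in smooth and heart muscle. The heat-inducible members are switched on by the factor Hsf1, whose binding element is made of repeated GAA blocks in alternating direction.

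Total expected counts (RSEM's estimate of reads per gene) ranged from 27271020 to 31896205 in praliciguat libraries and from 21099764 to 29635817 in placebo libraries. The 7 genes together took 0.208% to 0.301% of the counts with praliciguat and 0.320% to 0.398% with placebo. All 11 fast fibre markers were detected, with a summed level of 208492 to 237871 TPM with praliciguat and 204744 to 225062 TPM with placebo. These markers show fast muscle, but not which muscle it was or whether it was ischemic. Praliciguat replicate 3 stood apart. Its 7 macrophage and monocyte markers summed to 918 TPM, against 70.2 to 168 TPM in the other praliciguat libraries and 92.6 to 276 TPM in placebo. Its 6 fibroblast markers summed to 2342 TPM, against 349 to 815 TPM in the other praliciguat libraries and 703 to 1223 TPM in placebo. The fold changes of the members that this library moves most are given with and without it.

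Levels of different genes are compared here in TPM, a unit per transcript length. The order over all 8 libraries ran from Hspb6, with a geometric mean of 2039.8 TPM, through Cryab (1477 TPM), Hspb7 (463 TPM), Hspb8 (239 TPM), Hspb1 (182 TPM) and Hspb2 (132 TPM) to Hspb3 (60.5 TPM). The order was taken from these same libraries. Within a library, each gene was compared with the next in this order on the log2 TPM scale by an exact two-sided sign-flip permutation test over the 8 libraries, with adjustment over the 6 neighbouring pairs. The smallest p that 8 libraries allow is 0.00781. The steps that involve Cryab entered this adjustment, but their p-values are not given. The levels of Cryab with praliciguat were among the values that chose the family. Hspb6 lay above Cryab by 0.81 on average with praliciguat, in 4 of 4 libraries, and by 0.12 with placebo, in 3 of 4. In placebo muscle the levels of these 2 genes overlapped. Cryab lay above Hspb7 by 1.41 with praliciguat and by 1.93 with placebo, in every library of both groups. Among the steps without Cryab, Hspb8 exceeded Hspb1 by 0.40 ± 0.25 (SD, n = 8; exact permutation adjusted p = 0.0156, higher in 7 of 8 libraries). The other steps, in log2 TPM, were 0.96 ± 0.46 from Hspb7 to Hspb8, 0.45 ± 0.22 from Hspb1 to Hspb2 and 1.13 ± 0.22 from Hspb2 to Hspb3 (SD, n = 8; exact permutation adjusted p = 0.0117 each, in the same direction in 8 of 8 libraries).

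**Figure D1:**
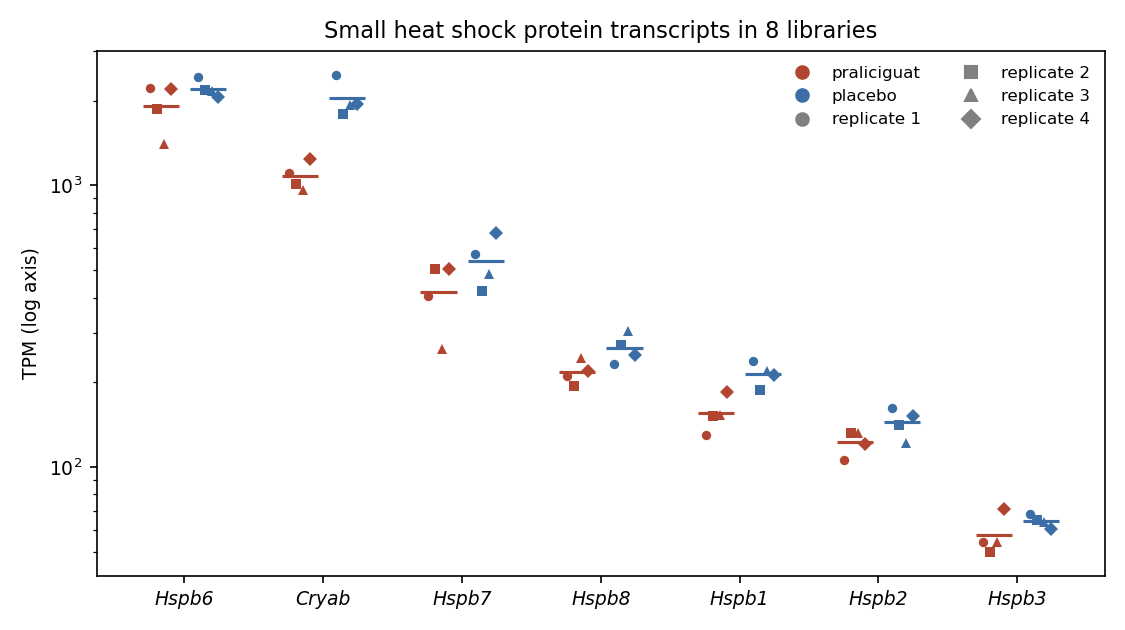
TPM (log axis) of the 7 genes in each library, praliciguat left of placebo, with a symbol per replicate and a line at the group mean. Cryab and Hspb1 are the genes whose groups do not overlap, and praliciguat replicate 3 lies lowest for Hspb6 (1402 TPM) and Hspb7 (262 TPM).

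Cryab was the member with the largest difference between the diets. It had 1108, 1016, 963 and 1246 TPM in praliciguat replicates 1 to 4, against 2475, 1795, 1929 and 1953 TPM in placebo replicates 1 to 4. Every praliciguat library lay below every placebo library, and placebo replicate 1 was the highest of all. On the count scale this was 447 ± 56.1 CPM (counts scaled to the library's total, adjusted by TMM) with praliciguat and 799 ± 117 CPM with placebo (SD, n = 4 each). The log2 fold change, praliciguat over placebo, was -0.84 ± 0.14 (SE), or 1.79-fold lower. Of all 13569 tested genes 254 had a lower fold change, and of the 1390 with an average of at least 100 CPM, 9 did. Cryab was chosen on this contrast, so nothing is read from these ranks. The difference in log2 CPM was -0.90 among the libraries with low title numbers and -0.77 among those with high title numbers, 2 libraries of each group in both sets; the labels do not say what the numbers mean. The fold change was -0.76 without praliciguat replicate 3 and -0.72 without placebo replicate 1. In bulk muscle, fewer cells of a type and less of a transcript per cell cannot be told apart.

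Cryab is known to be more abundant in slow than in fast fibres, and slow fibre markers differed between the groups as well. Their 10 genes summed to 651, 912, 769 and 668 TPM in praliciguat replicates 1 to 4, against 3625, 2396, 1660 and 3218 TPM in placebo replicates 1 to 4. The groups did not overlap, and placebo replicate 1 was the highest for these markers as it was for Cryab. Among the other libraries the match varied with the unit and the group. In placebo, replicate 3 was the lowest for these markers, and replicate 2 the lowest for Cryab in TPM. In CPM, placebo replicate 3 was the lowest for Cryab as well, at 726 CPM against 740 CPM in placebo replicate 2. With praliciguat, replicate 2 was the highest for these markers and replicate 4 the highest for Cryab in both units. Of the 10 markers 9 had a fold change below 0 (median log2 fold change -2.56), none was at 0 counts throughout, and in 8 the groups did not overlap, lower with praliciguat. Over all tested genes 44.8% were below 0 and 2.54% did not overlap, lower. Tnnt1, slow troponin T, was at 23.1 ± 5.80 CPM with praliciguat and 183 ± 77.2 CPM with placebo (SD, n = 4). Their part in the Cryab result was not tested.

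The reads of Cryab also spread differently over its transcripts. The files give, per gene, a transcript length averaged with the weight of each transcript's estimated abundance. For Cryab, which has 4 counted transcripts, this was 901.8, 901.8, 907 and 897 bases in praliciguat replicates 1 to 4, against 883, 887, 887 and 886 bases in placebo replicates 1 to 4. All praliciguat libraries had the longer average, 902 ± 4.05 bases against 886 ± 1.56 bases in placebo (SD, n = 4). Among the 5859 tested genes with more than 1 transcript, 1.25% had a longer average without overlap with praliciguat and 1.21% a shorter one. With effective lengths taken into account the fold change of Cryab was -0.87. In the GENCODE M21 annotation of GRCm38, the assembly also called mm10, Cryab lies on the plus strand at chr9:50751325-50756636. Its longest coding transcript has 1117 bases and begins inside Hspb2, with 252 bases that are exon on the opposite strand there. The transcript paired with the other 3 counted ones has 846 bases. Whether the counting used strand is not given in the labels or files, so reads in those shared bases are uncertain for both genes.

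**Figure D2:**
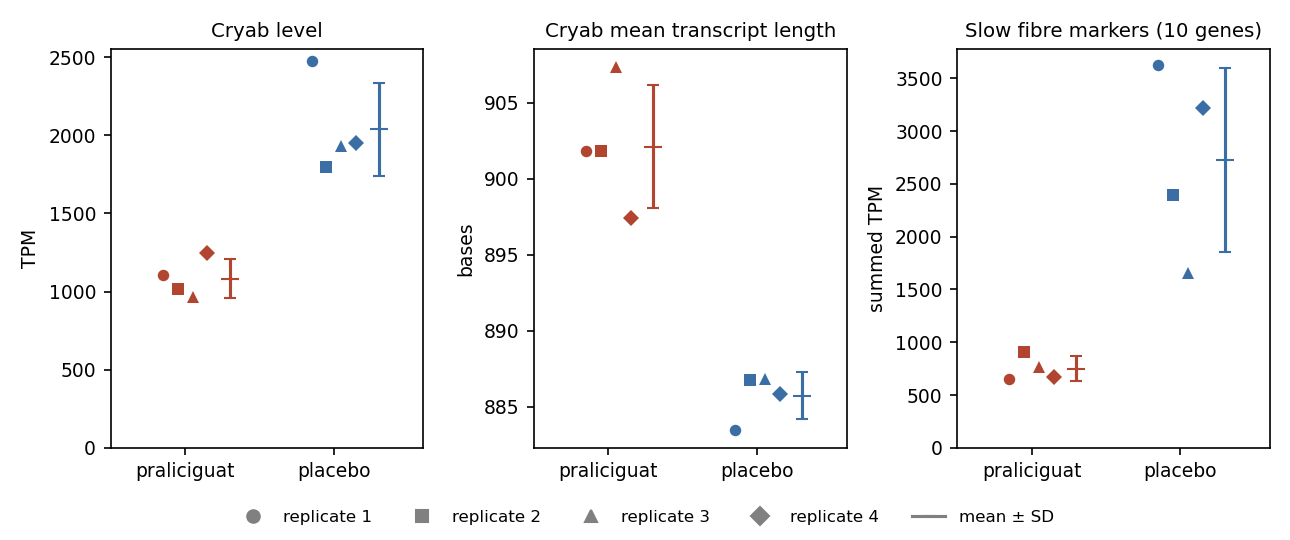
Cryab level (TPM), abundance-weighted mean transcript length of Cryab (bases, axis not starting at 0) and summed TPM of 10 slow fibre markers in each library, with mean ± SD (n = 4) beside the points. In all panels the groups are apart: Cryab and the slow fibre sum are lower and the mean transcript length is longer with praliciguat.

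Hspb2, the partner that binds the myotonic dystrophy kinase, is the head-to-head neighbour of Cryab at chr9:50751078-50752354 on the minus strand. The Cryab transcript of 846 bases starts 639 bases from the outermost Hspb2 start. Hspb2 had 106 to 132 TPM with praliciguat and 122 to 163 TPM with placebo, and the groups overlapped. Its log2 fold change was -0.20 ± 0.12 (SE), and -0.13 without placebo replicate 1. Cryab was 8.94 ± 1.68 times the level of Hspb2 in TPM with praliciguat and 14.2 ± 1.58 times with placebo (SD, n = 4), without overlap (7.28 to 10.5 against 12.7 to 15.8). The mean transcript length of Hspb2, which has 2 counted transcripts, was 822 ± 4.93 bases with praliciguat and 823 ± 5.11 bases with placebo.

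Hspb1, the classical heat-inducible small chaperone that also caps actin filaments, was the second member whose groups did not overlap. It had 131, 152, 153 and 185 TPM in praliciguat replicates 1 to 4, against 239, 188, 220 and 213 TPM in placebo replicates 1 to 4. The highest praliciguat library and the lowest placebo library were nearly level. The log2 fold change was -0.43 ± 0.12 (SE), from 64.0 ± 8.77 CPM with praliciguat and 86.2 ± 7.38 CPM with placebo (SD, n = 4). It was -0.53 among the low title numbers, -0.34 among the high ones and -0.39 without praliciguat replicate 3. Hspb1 is also made by vessel walls. The 8 endothelial markers summed to 234 to 340 TPM with praliciguat and 328 to 421 TPM with placebo, all 8 with a fold change below 0 (median -0.33) and none at 0 counts throughout. The 9 smooth muscle and pericyte markers summed to 405 to 538 TPM with praliciguat and 495 to 786 TPM with placebo, 8 with a fold change below 0 (median -0.26) and none at 0 counts throughout. Placebo replicate 1 held the 786 TPM, and without it the median was -0.086. The endothelial median was -0.22 without that library. Over all tested genes 44.8% had a fold change below 0. Their part in the Hspb1 result was not tested.

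RefSeq promoter windows on GRCm38.p6 (250 bases before to 50 after a start) were found for 5 members, as 6 windows. They were searched on both strands for GAANNTTC and TTCNNGAA, the inverted pairs of the block that Hsf1 binds. Each reads the same on both strands, and a copy of one may share a block with the other. At least 1 of these stood in 4 of the 6 windows and in 15.1% of all 32851 promoter windows (GAANNTTC in 7.86% and TTCNNGAA in 8.52%). Hspb1 held 2 copies of GAANNTTC, Hspb8, Hspb3 and 1 of the 2 Hspb6 windows held 1 copy, and Hspb7 and the other Hspb6 window held none. TTCNNGAA stood in none of the 6. A match is only a run of letters. The log2 fold change was -0.43 for Hspb1 with 2 copies and -0.31 for Hspb7 with no copy. It was -0.25 for Hspb8 and -0.13 for Hspb3 with 1 copy each. Hspb6, with a copy in 1 of its 2 windows, had -0.15, and no window was used for Cryab. Without praliciguat replicate 3 Hspb7 was at -0.12 and Hspb8 at -0.28. The part of these copies in the differences between the diets was not tested. The windows of the 3 most abundant members that hold a copy are shown, with GAANNTTC in capitals.
Hspb1, chr5:135887669-135887968, plus strand: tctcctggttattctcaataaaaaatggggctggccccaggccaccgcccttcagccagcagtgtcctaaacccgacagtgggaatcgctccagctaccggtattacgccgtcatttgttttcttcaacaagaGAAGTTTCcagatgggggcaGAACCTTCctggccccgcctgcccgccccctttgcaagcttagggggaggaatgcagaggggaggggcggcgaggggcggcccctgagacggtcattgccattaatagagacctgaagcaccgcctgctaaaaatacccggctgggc
Hspb8, chr5:116422815-116423114, minus strand: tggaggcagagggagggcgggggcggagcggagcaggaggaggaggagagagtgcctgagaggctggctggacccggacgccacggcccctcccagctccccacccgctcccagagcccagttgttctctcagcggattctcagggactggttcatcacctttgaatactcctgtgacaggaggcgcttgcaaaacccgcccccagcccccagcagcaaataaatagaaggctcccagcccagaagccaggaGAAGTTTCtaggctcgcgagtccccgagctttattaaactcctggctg
Hspb6, chr7:30553051-30553350, plus strand: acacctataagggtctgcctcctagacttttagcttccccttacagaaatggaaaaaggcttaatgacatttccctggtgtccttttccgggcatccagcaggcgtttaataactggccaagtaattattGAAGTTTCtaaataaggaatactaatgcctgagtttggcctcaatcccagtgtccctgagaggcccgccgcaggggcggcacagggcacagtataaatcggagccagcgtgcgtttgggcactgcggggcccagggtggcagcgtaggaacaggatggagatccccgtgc

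Hspb8, the Bag3 partner, had the smallest within-group SD of the family on the log2 CPM scale, with both groups pooled. It had 211, 193, 244 and 220 TPM in praliciguat replicates 1 to 4, against 233, 272, 304 and 251 TPM in placebo replicates 1 to 4. Only praliciguat replicate 3 reached into the placebo range. On the count scale it was at 202 ± 9.93 CPM with praliciguat and 241 ± 25.9 CPM with placebo (SD, n = 4), a log2 fold change of -0.25 ± 0.10 (SE). That SD was 0.12, and 21.4% of the 7924 genes with an average of at least 10 CPM had a smaller one. Within placebo alone Hspb8 varied more, with a coefficient of variation of 10.8% in CPM, against 7.06% for Hspb3.

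Hspb6, the target of cyclic nucleotide-dependent kinases, had the highest level of the family in 7 of 8 libraries. It had 2210.3, 1871, 1402 and 2195 TPM in praliciguat replicates 1 to 4, against 2423, 2177, 2162 and 2066 TPM in placebo replicates 1 to 4. Praliciguat replicate 3 was far below the rest, and the other praliciguat libraries lay within or just under the placebo range. The log2 fold change was -0.15 ± 0.17 (SE) with all libraries and -0.0072 without that one; it was -0.24 without praliciguat replicate 1 and -0.098 without placebo replicate 1. The markers in which praliciguat replicate 3 stood apart (918 TPM of macrophage and monocyte markers) are given above, and their part in its Hspb6 level was not tested.

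Hspb7, a heart and skeletal muscle form that binds filamin C, showed the widest spread. It had 404, 503, 262 and 506 TPM in praliciguat replicates 1 to 4, against 572, 421, 484 and 677 TPM in placebo replicates 1 to 4. Praliciguat replicates 2 and 4 lay among the placebo libraries. The log2 fold change was -0.31 ± 0.24 (SE), -0.12 without praliciguat replicate 3 and -0.19 without placebo replicate 4. It was -0.072 among the low title numbers and -0.62 among the high ones, where praliciguat replicate 3 belongs. Its within-group SD was 0.41 on the log2 CPM scale, larger than in 90.5% of the 7924 genes. Hspb3, a muscle form induced during myoblast differentiation, was the least abundant, with 50.1 to 70.8 TPM with praliciguat and 60.5 to 68.1 TPM with placebo. Its groups overlapped because praliciguat replicate 4 was the highest of all 8 libraries. The log2 fold change was -0.13 ± 0.12 (SE). It was -0.072 without praliciguat replicate 3 and -0.24 without praliciguat replicate 4, with -0.29 among the low title numbers and 0.024 among the high ones.

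**Figure D3:**
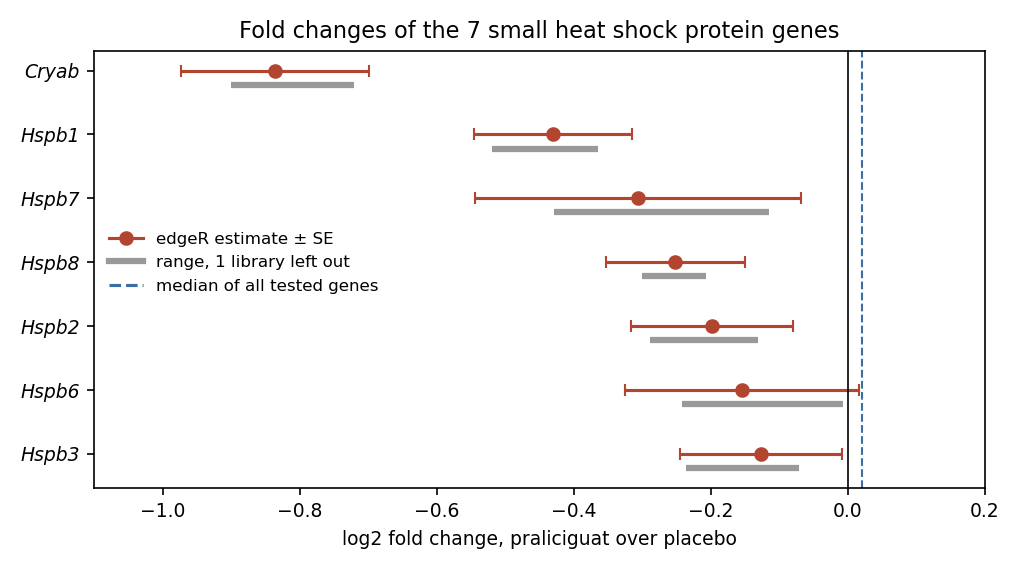
Log2 fold change (praliciguat over placebo) of each member from edgeR with its SE, the range when 1 library is left out (grey bar), 0 (solid line) and the median of all tested genes (dashed line, 0.020). Cryab at -0.84 lies farthest from 0, and the range of Hspb6 ends at -0.0072.

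Seen together, the 7 genes all lay below 0 in fold change and had a median of -0.25, where 44.8% of all tested genes were below 0 and their median was 0.020. Groups did not overlap, lower with praliciguat, in 2 of the 7, against 2.54% of all tested genes, and higher in 0 of 7, against 1.32%. In the edgeR quasi-likelihood fit across all genes 0 of 7 members passed an adjusted p of 0.05, and 0% of all tested genes did. At an unadjusted p under 0.05, 3 of the 7 (Cryab, Hspb1 and Hspb8) lay lower and none higher, against 3.78% of all tested genes lower and 5.73% in either direction. DESeq2 called 1 member, Cryab, lower at its adjusted threshold, against 0.753% of its 14738 tested genes, and limma-voom called 0. Because the family was chosen on this contrast, nothing is read from these shares.

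The summed level of the 7 genes was 4224, 3917, 3211 and 4543 TPM in praliciguat replicates 1 to 4, against 6172, 5058, 5283 and 5371 TPM in placebo replicates 1 to 4. The groups did not overlap. Without Cryab the sum was 2891 ± 458 TPM with praliciguat and 3434 ± 187 TPM with placebo (SD, n = 4), and the groups overlapped. Cryab made up 27.4 ± 1.85% of the sum with praliciguat and 37.1 ± 2.04% with placebo (SD, n = 4), without overlap. Hspb6 made up 48.0 ± 3.55% with praliciguat and 40.4 ± 2.03% with placebo (SD, n = 4), also without overlap; shares add to a fixed total, so these are not separate observations. The shares of the other 5 members overlapped between the groups.

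**Figure D4:**
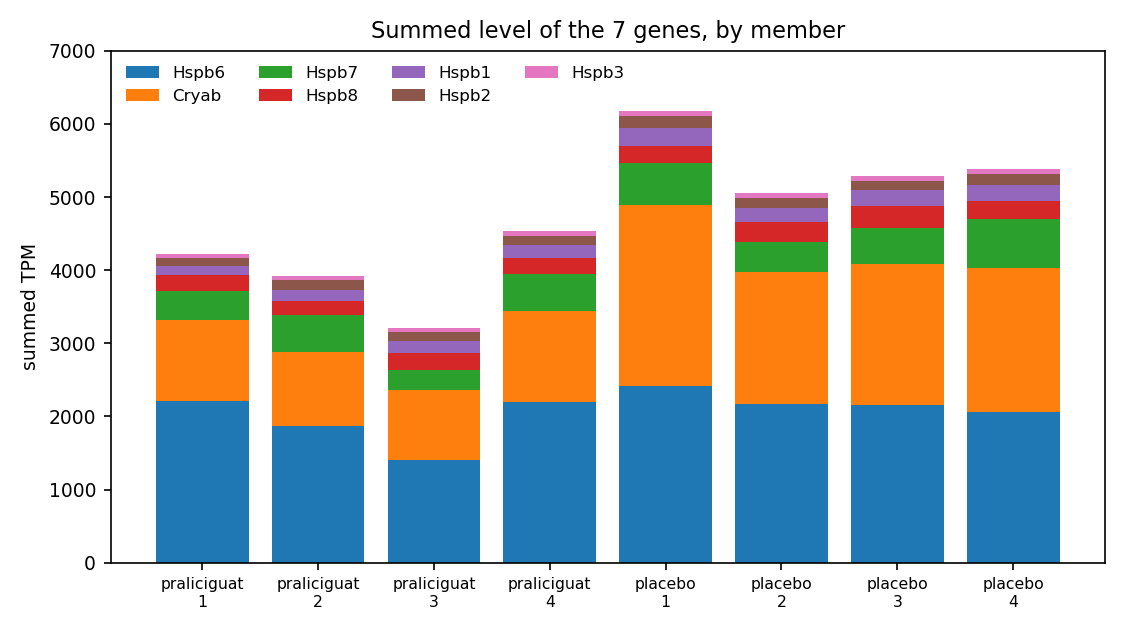
Summed TPM of the 7 genes in each library, stacked by member. The praliciguat bars reach 3211 to 4543 TPM and the placebo bars 5058 to 6172 TPM. Cryab makes up a smaller share of the praliciguat bars (27.4% on average) than of the placebo bars (37.1%).

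By the root mean square difference of centred log2 CPM over the 8 libraries, the 5 genes outside the family most like Cryab among 7923 were Rin3 (0.16), Nos3 (0.19), Tspan2 (0.19), Adcy4 (0.20) and Sox7 (0.20), where the median gene was at 0.49. Rin3 is a regulator of Rab proteins, Nos3 the endothelial nitric oxide synthase, Tspan2 a tetraspanin, Adcy4 an adenylate cyclase and Sox7 a transcription factor. Nos3 was at 15.7 ± 1.92 CPM with praliciguat and 24.0 ± 2.67 CPM with placebo (SD, n = 4). The 8 endothelial markers had a median log2 fold change of -0.33, and -0.22 without placebo replicate 1. Their part in the Cryab result was not tested. Within the family, Hspb1 was the most like Cryab, at 0.24 and rank 15 of the 7923. Hspb6 had rank 254, Hspb7 rank 352, Hspb3 rank 354, Hspb2 rank 384 and Hspb8 rank 456. These are descriptions over libraries that include the contrast on which Cryab was chosen.

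Of the other genes named as small heat shock proteins, Hspb11 alone had enough reads to be tested. Cryaa, alpha-A crystallin of the eye lens, had 0 counts in all libraries, which allows up to 0.0941 to 0.110 CPM in praliciguat libraries and 0.101 to 0.142 CPM in placebo libraries. Hspb9 and Odf1, known from testis, had 0 and 2 counts in all praliciguat libraries together and 1 and 4 counts in all placebo libraries together. Hspb11, an intraflagellar transport protein despite its name, was at 2.14 ± 0.188 CPM with praliciguat and 2.18 ± 0.399 CPM with placebo (SD, n = 4).

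None of the tested factors that control heat shock genes had groups that stood apart. Over all tested genes the groups stood apart in 2.54%, lower with praliciguat, and in 1.32%, higher. Of 7 listed heat shock factors and regulators 4 had enough reads to be tested, and their median log2 fold change was 0.028. Of these 0 passed in edgeR and 0 were at an unadjusted p under 0.05, against 0% and 5.73% of all tested genes. Hsf1, the main factor, was at 38.8 ± 3.72 CPM with praliciguat and 38.7 ± 2.73 CPM with placebo (SD, n = 4; log2 fold change 0.0060 ± 0.096 SE). Hsf2, its relative, was at 30.8 ± 0.704 CPM with praliciguat and 28.8 ± 2.59 CPM with placebo, and Hsbp1, a protein that binds Hsf1, at 105 ± 4.14 CPM against 102 ± 3.92 CPM with placebo. RNA levels do not show whether a factor is active.

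Partners in chaperone-assisted autophagy had fold changes of either sign. Of 10 genes 6 had a fold change below 0 (44.8% of all tested genes), and the median was -0.059. In edgeR 0 passed and 0 were at an unadjusted p under 0.05, against 0% and 5.73% of all tested genes. Bag3, the co-chaperone that holds Hspb8 and Hspa8 together, was at 191 ± 18.7 CPM with praliciguat and 206 ± 27.8 CPM with placebo (SD, n = 4; log2 fold change -0.11 ± 0.12 SE). Hspa8, the constitutive HSP70 chaperone, was at 652 ± 29.8 CPM with praliciguat and 745 ± 101 CPM with placebo (-0.19 ± 0.12 SE). Map1lc3b, a coat protein of autophagosomes, had 0.13 ± 0.092 and Synpo2, a Z-disc scaffold of the pathway, 0.21 ± 0.23 (log2 fold change, SE).

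Of the 14 tested genes for desmin filaments and Z-disc clients, 0 passed in edgeR, 3 were at an unadjusted p under 0.05, 6 had a fold change below 0, and the median was 0.017. Over all tested genes 0% passed, 5.73% were at an unadjusted p under 0.05 and 44.8% lay below 0. The sign of this median changed when single libraries were left out, between -0.042 without praliciguat replicate 1 and 0.066 without placebo replicate 4. Des, the desmin filament to which Cryab binds, was at 4072 ± 372 CPM with praliciguat and 4014 ± 80.1 CPM with placebo (SD, n = 4; log2 fold change 0.021 ± 0.10 SE). Nes, nestin, a filament protein of developing fibres and of vessels, was at 33.6 ± 6.45 CPM with praliciguat and 55.6 ± 12.3 CPM with placebo (-0.73 ± 0.18 SE), without overlap. It was the only 1 of the 14 whose groups did not overlap. Over all tested genes 2.54% did not overlap, lower with praliciguat, and 1.32%, higher. Actn2, the alpha-actinin of all fibres, had a log2 fold change of -0.53 ± 0.17, Fhl1, a LIM protein of the sarcomere, -0.53 ± 0.24, and Actn3, the alpha-actinin of fast fibres, 0.46 ± 0.22 (SE).

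The kinases that act on small heat shock proteins or stand directly upstream had 13 tested genes. Of these 0 passed in edgeR and 1 was at an unadjusted p under 0.05, against 0% and 5.73% of all tested genes. The median log2 fold change was 0.088. Mapkapk2, the kinase of the p38 pathway that phosphorylates Hspb1, was at 293 ± 42.1 CPM with praliciguat and 275 ± 32.4 CPM with placebo (SD, n = 4; log2 fold change 0.088 ± 0.13 SE). Prkg1, the cGMP-dependent kinase, was at 44.6 ± 16.3 CPM with praliciguat and 53.9 ± 11.7 CPM with placebo (-0.27 ± 0.27 SE). Mapk11 and Mapk14, p38 kinases, had -0.63 ± 0.24 and 0.35 ± 0.17, and Prkd1 and Prkd2, protein kinase D forms, 0.34 ± 0.21 and -0.24 ± 0.16 (log2 fold change, SE). Phosphorylation itself was not measured.

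The ATP-dependent chaperones, which refold what small heat shock proteins hold, had a median log2 fold change of -0.064 over 18 tested genes. Of these 0 passed in edgeR and 3 were at an unadjusted p under 0.05, against 0% and 5.73% of all tested genes. The median was -0.019 without placebo replicate 3. Those 3 were Hspa1b (-1.06 ± 0.25 SE), Hspa1a (-1.01 ± 0.29) and Hsph1 (-0.56 ± 0.17); the first pair are stress-inducible HSP70 genes of near-identical sequence whose reads RSEM divides, and both were low, at 2.10 ± 0.253 and 2.48 ± 0.953 CPM with praliciguat and 4.39 ± 1.51 and 4.99 ± 0.866 CPM with placebo (SD, n = 4).

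**Figure D5:**
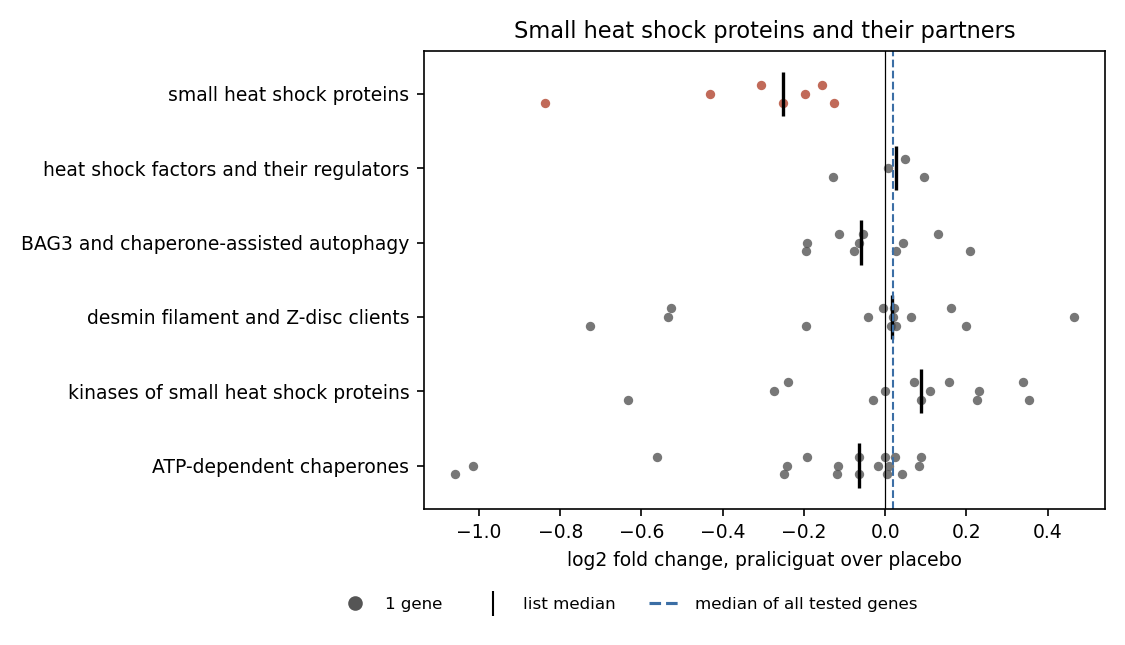
Log2 fold change (praliciguat over placebo) of the tested genes of the small heat shock protein family and of 5 partner lists, 1 point per gene, with list medians (black ticks) and the median of all tested genes (dashed line). The 7 small heat shock proteins lie below 0 with a median of -0.25, and the partner lists have medians between -0.064 and 0.088.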

How the data were processed

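The 8 libraries were made, per the labels' protocols, from snap-frozen homogenised muscle with Tri Reagent and a stranded mRNA kit. Tools listed in the submitters' processing notes are STAR 2.5.3a and RSEM 1.2.28, with FastQC and Trimmomatic, on mm10. The authors deposited 1 table per library. Per the file headers it holds RSEM's expected count per gene; its TPM column, also deposited by the authors, is a length-scaled level, and its length columns are averages over transcripts in bases.

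Expected counts were rounded (0.765% to 0.930% were not whole, tolerance 0.001) and tested with edgeR 4.0.16 under R 4.3.3, by a robust quasi-likelihood F test with TMM scaling, the filterByExpr filter, no covariate and Benjamini-Hochberg adjustment. DESeq2 1.42.0 and limma 3.58.1 were alternatives. The step was tested on simulated data. Groups came from the labels; replicate numbers follow accession order and pair nothing. Chi-square per degree of freedom between libraries of a group was 25.7 to 153, so none agreed within sampling noise. Limits from 0 counts (3 counts of the total) cover counting error only. Named genes were the 7 members, the 5 genes most like Cryab, up to 4 genes of lowest p per list, and Bag3, Hsf1, Prkg1, Mapkapk2 and Des. For slow fibre markers Tnnt1 alone is named. Lists covered partners and markers of fast, slow and regenerating fibres, smooth muscle, endothelium, macrophages, fibroblasts, fat, Schwann, red blood and heart muscle cells. Members and lists were chosen with earlier results of these data known. Promoters are from RefSeq; those of Cryab and Hspb2 were not used.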

Additional observations from a re-analysis of the deposited data

Results flagged for a closer look

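Cryab in placebo replicate 1 lay far above the other placebo libraries, at 973 CPM, and its gap to the next library was 0.883 of the whole placebo range, past Dixon's 95% limit for 4 libraries. Without that library the log2 fold change of Cryab, praliciguat over placebo, was -0.72, against -0.84 with all 8 libraries. It was the 1 value that stood out among 20 sets of 4 libraries examined, and chance alone picks out about 1 in 20.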

How the results depend on the processing

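All 7 members kept a fold change below 0 under all 21 alternatives of the fit, among them other scalings, filters, tools and each library left out. The adjusted p of 0.1 and the fit without robust dispersion left the fold changes as they were. The high title numbers alone were not among these alternatives, and there the Hspb3 difference in log2 CPM was 0.024. The log2 fold change of Cryab ranged from -0.91 to -0.72, that of Hspb1 from -0.52 to -0.37 and that of Hspb6 from -0.24 to -0.0072. The 4 tested steps in the order of levels that do not involve Cryab stayed past the threshold in all 10 alternatives, with exact permutation adjusted p up to 0.0312. A step with the same direction in every library gets the smallest possible p, also with 1 library left out. The order was also taken from these same libraries, so nothing is read from the steps staying past the threshold. The log2 ratio of the summed level was -0.46, between -0.53 and -0.34 in 9 alternatives. DESeq2 called 1 member (Cryab); edgeR and limma called 0. Over all genes edgeR called 0 higher and 0 lower; DESeq2 called 13 higher and 111 lower, limma-voom 2 lower, edgeR with the title run as a block 3 lower, an adjusted p of 0.1 gave 11 lower, and leaving out praliciguat replicates 3 and 4 together gave 6 higher and 79 lower. With 1 library left out edgeR called 0 higher and 0 to 5 lower, the 5 without placebo replicate 3. The cause of these shifts was not tested. No paired analysis was possible because replicate numbers only follow accession order. Depth did not limit the members, which had at least 462 counts in each library.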

Other observations

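Markers of other cell types are given as summed TPM and as the median log2 fold change of each list (praliciguat over placebo). Of their genes 0 passed the edgeR threshold, as did 0% of all tested genes. Regenerating fibre markers summed to 43.4 to 88.8 TPM with praliciguat and 48.2 to 101 TPM with placebo (median -0.65, 7 of 8 tested, 3 at an unadjusted p under 0.05, where 5.73% of all tested genes were). That median was -0.026 without placebo replicate 3 and -1.44 without praliciguat replicate 3. Within that list Myh3, the embryonic myosin heavy chain, was at 5.46 ± 4.19 CPM with praliciguat and 36.3 ± 13.99 CPM with placebo, while Myod1, a factor of muscle precursors, was at 32.1 ± 5.47 CPM with praliciguat and 19.9 ± 4.46 CPM with placebo (SD, n = 4). Adipocyte markers summed to 2448 to 5961 TPM with praliciguat and 2075 to 4343 TPM with placebo (median 1.04). Schwann cell markers summed to 95.6 to 187 TPM with praliciguat and 150 to 333 TPM with placebo (median -0.58), and red blood cell markers to 634 to 1534 TPM with praliciguat and 669 to 1776 TPM with placebo (median -0.23). The Schwann cell median was -0.15 without placebo replicate 1, the red blood cell median ranged from -0.48 without praliciguat replicate 2 to -0.054 without placebo replicate 3, and the adipocyte median was 1.67 without placebo replicate 3. Macrophage and monocyte markers had a median of 0.76, which was -0.34 without praliciguat replicate 3, and fibroblast markers a median of 0.21, which was -0.43 without it. Heart muscle markers summed to 17.3 to 60.5 TPM with praliciguat and 42.5 to 65.8 TPM with placebo, with Nppa at 0 counts in all libraries and 3 of 6 genes tested (median -0.43). This median was -1.07 without praliciguat replicate 3, -0.15 without placebo replicate 3 and -1.38 with a filter of 1 CPM in 4 libraries. Myh6, the heart myosin heavy chain of that list, was at 9.99 ± 8.48 CPM with praliciguat and 49.96 ± 24.8 CPM with placebo (SD, n = 4; log2 fold change -2.33 ± 0.69 SE), and the groups overlapped. The fast fibre list had a median of 0.083. These medians are of lists chosen with earlier results known, and their part in the levels of the small heat shock proteins was not tested.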
